A study of Homo sapiens with 18 samples.

Results

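Untreated cells of Detroit 562 and of SCC-9, both lines of head and neck squamous cell carcinoma (HNSCC), were compared by mRNA sequencing. The comparison takes the 3 untreated libraries of each line, 6 of the 18 libraries in the series, and the 15475 of 19901 genes that had enough counts to be tested. Detroit 562 came from a pleural effusion of a pharyngeal carcinoma and was grown in MEM-α. SCC-9 came from a primary carcinoma of the tongue and was grown in DMEM F12 with HEPES and 400 ng/ml hydrocortisone, a glucocorticoid. The line, its medium and the hydrocortisone therefore cannot be told apart in any value below. Each line comes from 1 tumour, so no difference is one between the pharynx and the tongue. The HGF-treated libraries of the same lines, 3 each after 16 h with 50 ng/ml hepatocyte growth factor, share no library with the untreated ones and were compared in the same way. A record of the series gives another length of treatment, which bears on those libraries only. The third line, FaDu, from the hypopharynx and grown in MEM-α, is quoted only as a level beside the other two. The study's methods describe repeats of the whole culture experiment, but the labels do not say which library came from which repeat. The p-values set a difference between lines against the spread between libraries of a group, estimated from all 18 libraries.

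Squamous epithelium is built in layers. Basal cells express the keratin pair KRT5 and KRT14, suprabasal cells of the wet mucosa change to KRT4 and KRT13, and cells of simple and glandular epithelium use KRT8, KRT18 and KRT19. Carcinomas keep parts of these programs and mix them with genes of wound repair, of mesenchyme and of the glands that line the pharynx. HOX genes and other homeobox factors are expressed by position along the body in the embryo. Whether these carcinoma lines keep the pattern of their site of origin was not tested.

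Levels are counts scaled by the TMM method, called normalized counts, and were not divided by gene length, so they are compared between lines and not between genes. The log2 fold change is Detroit 562 minus SCC-9, and a negative value means a higher level in SCC-9. A gene was called when its Benjamini-Hochberg adjusted p in edgeR's quasi-likelihood test was below 0.1 and its log2 fold change was 0.4 or more in size. It was called at least 4-fold when these were below 0.05 and 2 or more. By these rules 10118 genes were called, 65.4% of those tested. Of all tested genes 31.4% (4865) were higher in Detroit 562 and 33.9% (5253) in SCC-9. A difference of at least 4-fold was called for 2698 genes (17.4%), 1309 (8.46%) higher in Detroit 562 and 1389 (8.98%) in SCC-9. The median log2 fold change over all tested genes was -0.03. For 80.7% of genes (12481) the 3 libraries of one line did not overlap the 3 of the other. The counts of a gene list are read against these shares. They cover tested members only, and a member that passed the filter on low counts through one line alone had to differ.

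Total counts on genes ranged from 37431702 to 42879349 in Detroit 562 and from 37644764 to 40247707 in SCC-9. Libraries correlated across genes at r of 0.9915 to 0.9956 within Detroit 562, 0.9934 to 0.9954 within SCC-9 and 0.8151 to 0.8304 between the lines. Here the genes are the points, and they are not independent. Detroit 562 replicate 3 stood somewhat apart. In it 1.09% of 12737 genes were at least 2-fold above or below the mean of the other 2 libraries, against at most 0.339% in any other of the 6 libraries. Keratins, aldehyde and alcohol dehydrogenases were among the genes that were low in it, and its values are printed with the others. Without it 10172 genes were called. Both lines carried the defining markers of epithelium, EPCAM at 17190, 16670 and 17350 in Detroit 562 and at 3513, 2844 and 3270 in SCC-9. Of 8 markers of squamous epithelium none was called higher in Detroit 562 and 6 were in SCC-9. Of 9 fibroblast markers LUM and THY1 were at the floor of at most 3 counts per library in both lines. Of the 5 tested, 2 were called higher in Detroit 562, 0 of them at least 4-fold. The other 3 were called higher in SCC-9, each at least 4-fold. The summed level of the list was 1215 to 2190 in Detroit 562 and 5066 to 5632 in SCC-9. Of 7 leukocyte markers PTPRC, which marks all leukocytes, was at the floor in both, with summed levels of 839 to 1642 in Detroit 562 and 2526 to 2623 in SCC-9, most of it CD68, which is also found outside leukocytes. Of the 3 tested, 0 were called higher in Detroit 562 and 2 in SCC-9, 1 of them at least 4-fold. CD14 was at the floor in Detroit 562, with a mean of 2.12, and at a mean of 356.5 in SCC-9 and 198.9 in FaDu. Mesothelial cells line the pleura, and the sum of 6 of their markers was 1016 to 1210 in Detroit 562 and 203 to 245 in SCC-9. In Detroit 562 it came almost wholly from MSLN and UPK3B, while CALB2 and WT1, both defining, reached at most 2.88 normalized counts in any library. Of the 5 mesothelial markers tested, 2 were called higher in Detroit 562 and 1 in SCC-9, each of them at least 4-fold. The part of such cells in the results was not tested.

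The lines differed first in their keratins. Of 5 simple epithelial keratins tested, 4 were higher in Detroit 562 and 1 in SCC-9, with a median of 1.96 on the log2 scale. Of 19 stratified epithelial keratins 9 were higher in Detroit 562 and 8 in SCC-9. KRT4, the mucosal suprabasal keratin, stood at 151000, 153500 and 93090 in the Detroit 562 libraries and at 19.2, 76.2 and 43.9 in those of SCC-9. No SCC-9 library came near those of Detroit 562 (log2 fold change 11.47, SE 0.967, adjusted p = 1.11e-08). In such libraries of whole cultures, fewer cells with a transcript and less of it per cell cannot be told apart. KRT13, which pairs with KRT4, was at 9153, 8236 and 4131 against 33.6, 44.8 and 55.2 (log2 fold change 7.33, SE 0.852, adjusted p = 6e-07). KRT19, a keratin of simple epithelium, was at 138600, 122300 and 81290 against 1282, 1522 and 2010 (log2 fold change 6.15, SE 0.425, adjusted p = 8.69e-10). All 3 genes were lowest among the Detroit 562 libraries in replicate 3, yet the lines did not overlap.

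SCC-9 was high in other keratins. KRT14, the basal partner of KRT5, was at 40.6, 56.6 and 50.7 in Detroit 562 and at 94780, 119000 and 136600 in SCC-9 (log2 fold change -11.21, SE 0.41, adjusted p = 3.5e-13). KRT5 itself overlapped between the lines, at 103300, 90120 and 59750 and 61740, 72550 and 72170, and did not pass the test (log2 fold change 0.29, SE 0.311, adjusted p = 0.398). KRT16, which keratinocytes express after wounding, was at 164, 164 and 145 against 4505, 5069 and 5644 (log2 fold change -5.01, SE 0.343, adjusted p = 7.77e-10). Its relatives KRT6A, KRT6B, KRT6C and KRT17 were also called higher in SCC-9, with log2 fold changes of -2.10, -1.47, -1.56 and -1.64, though the 3 KRT6 genes are near-identical copies whose reads cannot be assigned with certainty. The hair keratin KRT81 also separated the lines. It was at 138, 160.1 and 144 in Detroit 562 and at 156400, 161900 and 160300 in SCC-9 (log2 fold change -10.08, SE 0.228, adjusted p = 1.58e-15). KRT86, its neighbour, had a log2 fold change of -5.15, but its annotated extent overlaps KRT7 on the same strand and reads in the overlap were counted for both. FaDu had 8962 normalized counts of KRT4, 15680 of KRT14 and 78.7 of KRT81.

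**Figure D1:**
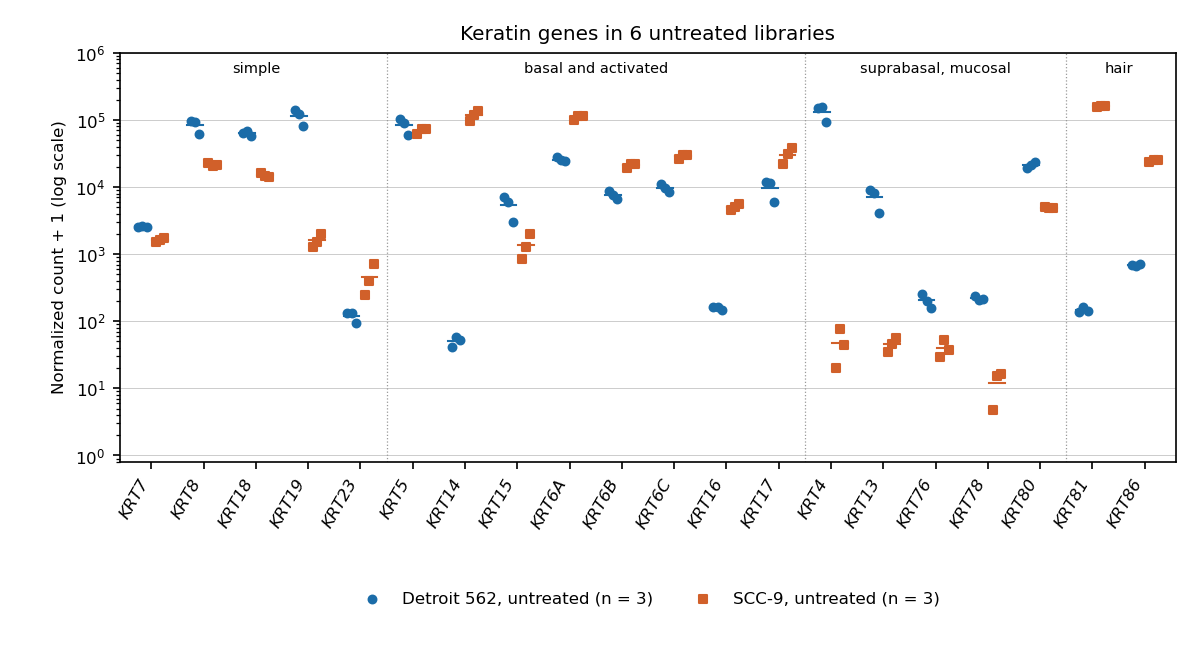
Normalized counts plus 1 (log scale) of keratin genes in the 3 untreated libraries of Detroit 562 (blue circles) and of SCC-9 (orange squares), with a line at each mean. KRT8, KRT18, KRT19, KRT4 and KRT13 sit higher in Detroit 562, KRT14, KRT16, KRT81 and KRT86 sit higher in SCC-9, and the libraries overlap for KRT5.

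Transcription factors of squamous epithelium were shared in part. Of 23 tested, 12 were higher in Detroit 562 and 5 in SCC-9, with a median of 0.74. TP63, the master regulator of stratified epithelium, was at 5260, 4644 and 3909 and 5520, 5869 and 6411 and was not called, as its log2 fold change of -0.37 was under 0.4 in size. It passed at -0.47 without Detroit 562 replicate 1 and at -0.41 without SCC-9 replicate 1. SOX2, a factor of the embryonic foregut and a frequent oncogene of squamous carcinoma, was at 2916, 2456 and 2356 in Detroit 562 and at 3.84, 7.62 and 5.11 in SCC-9 (log2 fold change 8.83, SE 0.257, adjusted p = 2.7e-14). The epithelial ETS factors EHF and ELF3 were higher in Detroit 562 as well, with log2 fold changes of 2.86 and 3.41. TFAP2A, a factor of early ectoderm, was higher in SCC-9, at 1403, 1247 and 1645 in Detroit 562 against 7749, 8379 and 8617 (log2 fold change -2.53, SE 0.134, adjusted p = 2.76e-11).

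Genes of the cornified envelope, the protein shell of dead squames, did not move as a group. Of 26 tested, 8 were higher in Detroit 562 and 12 in SCC-9, with a median of -0.37. SPRR3, a small proline-rich envelope protein of the oral and oesophageal mucosa, was at 480.1, 676 and 803 in Detroit 562 and at 0.959, 5.72 and 3.07 in SCC-9 (log2 fold change 7.59, SE 0.41, adjusted p = 3.67e-11). SPRR1B, SCEL and PPL followed it, with log2 fold changes of 3.43, 4.28 and 2.75. The skin-type proteases KLK5 and KLK7, which cut the junctions of shedding squames, lay the other way, at 21.7, 29.4 and 23.8 against 764, 1075 and 2366 for KLK5 (log2 fold change -5.81, SE 0.52, adjusted p = 2.38e-08) and at a log2 fold change of -5.64 for KLK7. KLK5 varied widely among the SCC-9 libraries, but the lowest of them was above every Detroit 562 library. Involucrin (IVL), an early envelope protein, overlapped between the lines at 884, 873 and 512 and 412, 494 and 707 (log2 fold change 0.49, SE 0.304, adjusted p = 0.15). It was called at 0.50 in a fit of the 6 untreated libraries alone, at 0.71 without Detroit 562 replicate 3 and at 0.74 without SCC-9 replicate 3. FLG2, LOR and CRNN were at the floor in both lines.

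Both lines kept junctions of epithelium. Of 37 genes of junctions and the epithelial program, 15 were higher in Detroit 562, 9 in SCC-9 and 13 were not called, with a median of 0.01. E-cadherin (CDH1) was at 13370, 12300 and 10670 in Detroit 562 and at 18560, 19400 and 20560 in SCC-9 (log2 fold change -0.69, SE 0.101, adjusted p = 9.69e-06). ESRP1, a splicing regulator of epithelial cells, was not called at a log2 fold change of -0.13, with 7808, 7392 and 7035 against 7936, 7777 and 8579. Within the list the tight junction and the desmosome parted. Of the tight junction genes TJP1, TJP3, CGN, CLDN3 and CLDN4 were higher in Detroit 562, TJP3 at 2407, 2210 and 1452 against 8.63, 12.4 and 17.4 (log2 fold change 7.30, SE 0.468, adjusted p = 3.24e-10). The desmosome genes DSG3, DSP, PKP1, JUP and DSC3 were higher in SCC-9, DSG3 at 392, 304 and 123 against 6273, 8022 and 9831 (log2 fold change -4.87, SE 0.371, adjusted p = 3.01e-09). PKP2 was an exception among desmosome genes, at 1.25. The list was not tested for such a division, and these members were picked for it after their values were seen.

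**Figure D2:**
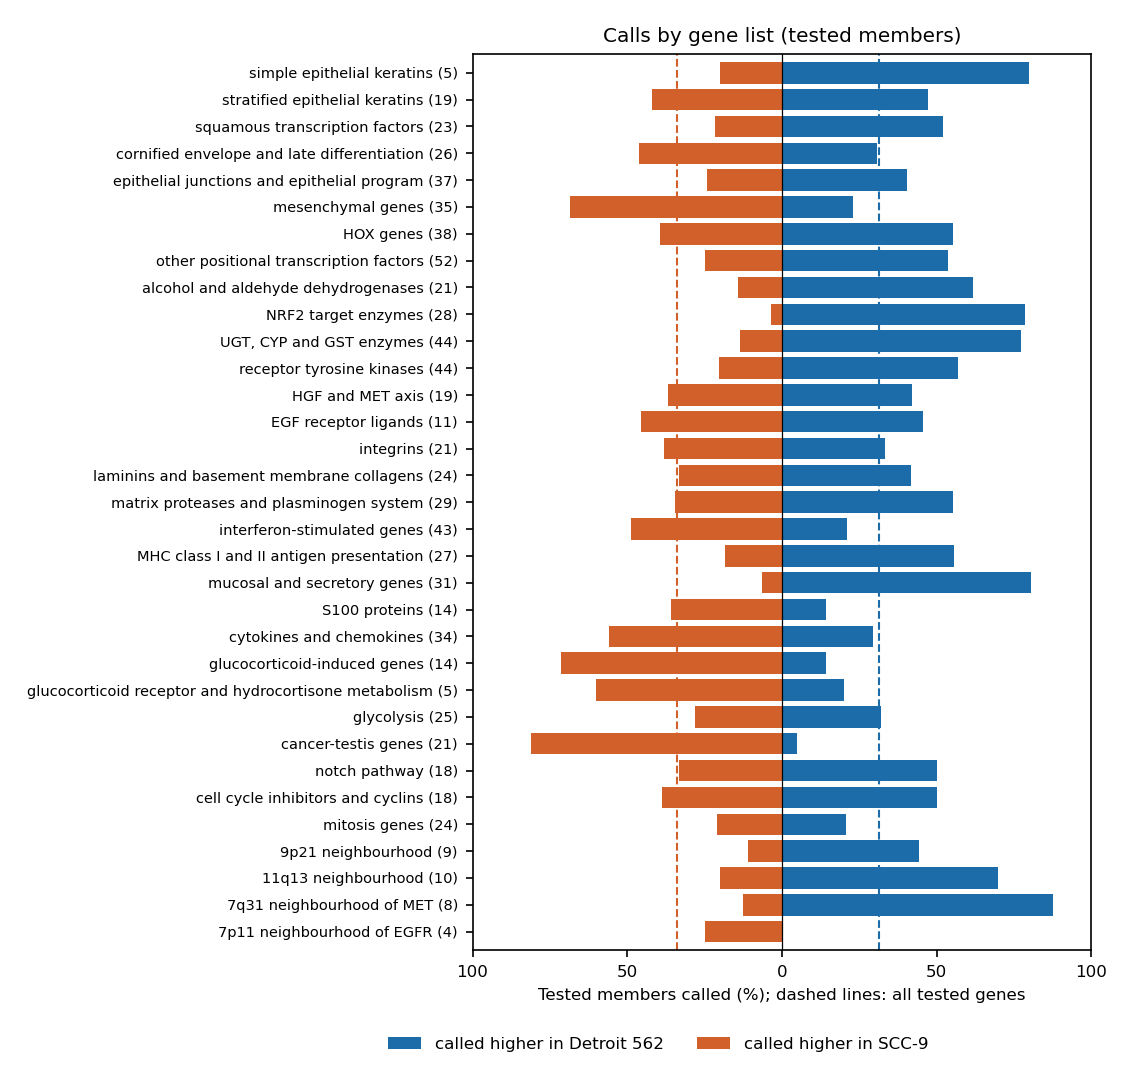
Share (%) of the tested members of each gene list called higher in Detroit 562 (blue, to the right) and in SCC-9 (orange, to the left) in the untreated libraries, with the number tested in brackets and dashed lines at the shares over all tested genes, 31.4% and 33.9%. The neighbourhood of MET, mucosal genes, simple keratins, NRF2 target enzymes and UGT, CYP and GST enzymes lie furthest to the right, and cancer-testis, glucocorticoid-induced and mesenchymal genes furthest to the left.

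Mesenchymal genes were mostly higher in SCC-9, although it expressed E-cadherin. Of 35 tested, 24 were higher in SCC-9 and 8 in Detroit 562, with a median of -1.65. Vimentin (VIM), the intermediate filament of mesenchyme, was at 3.78, 7.62 and 5.40 in Detroit 562 and at 11350, 7934 and 5296 in SCC-9 (log2 fold change -10.50, SE 0.514, adjusted p = 1.07e-11). Fibronectin (FN1), a glycoprotein of the matrix, was at 1075, 1093 and 806 against 264300, 254700 and 317100 (log2 fold change -8.13, SE 0.34, adjusted p = 1.62e-12). SPARC, a collagen-binding matrix protein, was at the floor in Detroit 562, with 2.83, 3.27 and 1.08 normalized counts, and at 2330, 1952 and 1682 in SCC-9. The summed counts stood at a ratio of 827 (95% interval 401 to 2058), where the interval covers counting error only, here and below. FAP, a surface protease known from activated fibroblasts and one of the fibroblast markers above, was at 0, 1.09 and 0 against 1530, 1640 and 1953. Of the factors that drive a mesenchymal change, SNAI2 was at 1115, 1051 and 1463 against 4664, 4356 and 4223 (log2 fold change -1.87, SE 0.168, adjusted p = 2.52e-08), SNAI1 and ZEB2 had log2 fold changes of -3.96 and -3.48, and ZEB1 was not called (0.19). The list was not uniform, because N-cadherin (CDH2), TWIST2, LOX and COL5A2 were higher in Detroit 562. COL5A2, a chain of fibrillar collagen V, was at 33220, 28680 and 17470 in Detroit 562 and 140.0, 144 and 102 in SCC-9 (log2 fold change 7.68, SE 0.312, adjusted p = 1.14e-12), while its partner chain COL5A1 lay the other way at -1.65.

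Collagenases and stromelysins were higher in Detroit 562. Of 29 genes of matrix proteases and the plasminogen system, 16 were higher in Detroit 562 and 10 in SCC-9, with a median of 0.58. MMP13, collagenase 3, was at 6647, 6474 and 3878 in Detroit 562 and at 1.92, 0.953 and 1.02 in SCC-9, where it was at the floor, a ratio of summed counts of 4383 (95% interval 1711 to 16090). MMP10, stromelysin 2, was at 9646, 7596 and 6807 against 0.959, 7.62 and 6.13 (log2 fold change 10.64, SE 0.563, adjusted p = 2.8e-11). MMP1, interstitial collagenase, was at 6130, 5467 and 11010 against 9.59, 19.1 and 23.5 (log2 fold change 8.76, SE 0.535, adjusted p = 1.74e-10) and was highest in Detroit 562 replicate 3, the library in which MMP13 was lowest. The plasminogen system lay partly the other way. The urokinase receptor PLAUR was at 369, 398 and 713 against 3019, 2829 and 2696 (log2 fold change -2.53, SE 0.305, adjusted p = 9.4e-07). Tissue plasminogen activator (PLAT) was higher in Detroit 562, at 2.56.

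Receptors and ligands of the matrix were divided. Of 21 integrins, 7 were higher in Detroit 562 and 8 in SCC-9, and of 24 laminins and other basement membrane genes 10 and 8. The fibronectin receptor chain ITGA5 was at 881, 881 and 1261 in Detroit 562 and at 4594, 4771 and 4642 in SCC-9 (log2 fold change -2.21, SE 0.204, adjusted p = 3.39e-08). ITGA4, a second receptor chain for fibronectin, was at 0, 2.18 and 2.16 and so at the floor in Detroit 562, and at 697, 654 and 468 in SCC-9. Among laminin chains LAMA3, the alpha chain of epithelial laminin-332 (laminin 5), was at 10560, 10480 and 15220 against 60620, 53300 and 47440 (log2 fold change -2.15, SE 0.232, adjusted p = 2.37e-07). LAMA4, a chain of vessels and muscle, was at 1641, 1922 and 2428 in Detroit 562 and at 3.84, 14.3 and 4.09 in SCC-9 (log2 fold change 8.04, SE 0.278, adjusted p = 1.87e-13). COL18A1, the source of endostatin, was higher in Detroit 562 too, at 6.26, and tenascin C (TNC), a matrix protein of wounds, was higher in SCC-9, at -3.69.

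Most tested genes of the mucosal glands were higher in Detroit 562. Of 44 mucosal and secretory genes 13 were not tested for low counts, 5 of them at the floor in both lines. Of the 31 tested, 25 were higher in Detroit 562 and 2 in SCC-9, a median of 4.86, or 3.95 with genes at the floor in one line set to their bound. PIGR, which carries IgA across glandular epithelium, was at 4695, 5273 and 2262 in Detroit 562 and at the floor in SCC-9 with 1.92, 0.953 and 2.04, a ratio of summed counts of 2519 (95% interval 1079 to 7759). CEACAM6, a surface glycoprotein of mucosa, was at 56770, 68690 and 82250 against 6.71, 41.0 and 25.6 (log2 fold change 11.46, SE 0.513, adjusted p = 3.5e-12), with the limit that an unnamed transcript overlaps it on the same strand. AGR2, a disulfide isomerase of mucus-secreting cells, was at 10410, 11130 and 6996 against 6.71, 8.57 and 4.09 (log2 fold change 10.49, SE 0.51, adjusted p = 9.86e-12). SPDEF, a transcription factor of goblet cells, was at 1829, 1728 and 1582 against 1.92, 0.953 and 5.11 (log2 fold change 9.29, SE 0.255, adjusted p = 1.5e-14).

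The gel-forming mucins MUC5B and MUC5AC were called higher in Detroit 562, MUC5B at 119, 161 and 112 against 3.84, 6.67 and 2.04 and MUC5AC at 38.7, 50.1 and 95.01 against 0, 0 and 1.02. Secretoglobin SCGB3A1, a product of airway epithelium, was at 627, 803 and 709 against 1.92, 3.81 and 1.02 (log2 fold change 8.21, SE 0.345, adjusted p = 1.38e-10). BPIFB1, a secreted airway protein, was at 388, 493 and 297 against 0.959, 0 and 0, and the salivary water channel AQP5 was at 44.4, 20.7 and 35.6 against 0 in every SCC-9 library, at least 11.4-fold. CLCA2 and CFTR, which act in chloride transport, lay the other way. CLCA2 was at 148, 116 and 45.4 in Detroit 562 and 1189, 1500 and 1708 in SCC-9 (log2 fold change -3.81, SE 0.471, adjusted p = 1.25e-06), and CFTR had a log2 fold change of -2.29. FaDu, grown in the same medium as Detroit 562, had 1.28 normalized counts of PIGR, 49.3 of AGR2 and 3.57 of SPDEF.

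**Figure D3:**
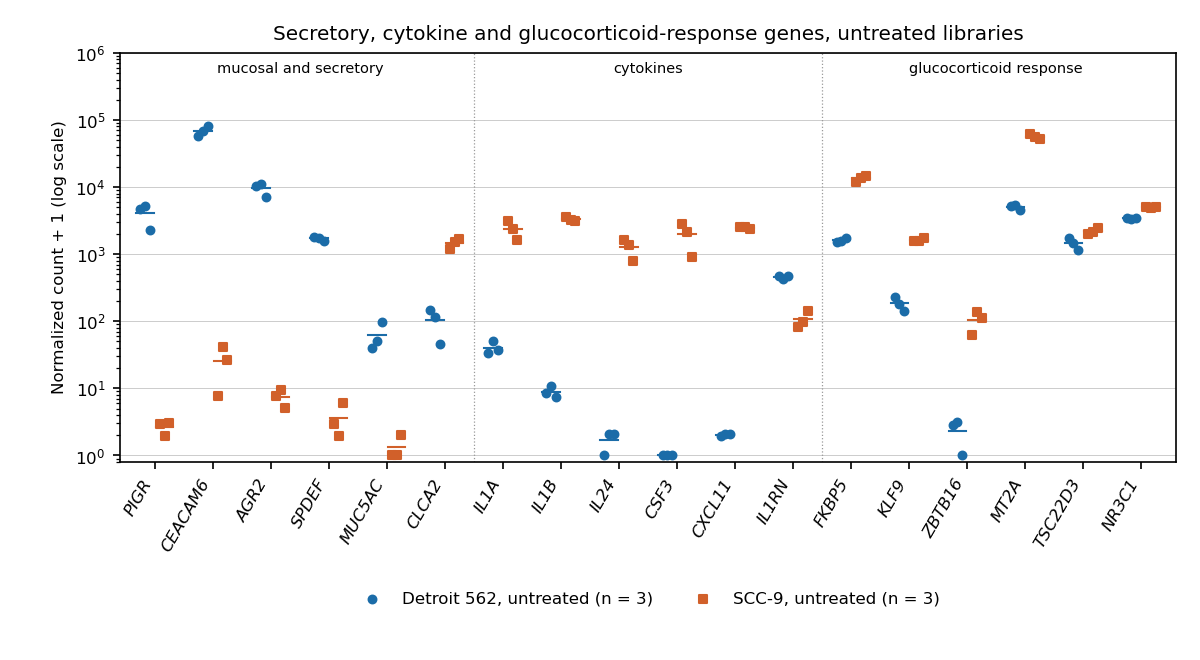
Normalized counts plus 1 (log scale) of secretory genes, cytokines and glucocorticoid-response genes in the 3 untreated libraries of Detroit 562 (blue circles) and SCC-9 (orange squares), with a line at each mean. PIGR, CEACAM6, AGR2, SPDEF and MUC5AC lie higher in Detroit 562, and CLCA2 and the cytokines drawn other than IL1RN lie higher in SCC-9. FKBP5, KLF9, ZBTB16, MT2A, TSC22D3 and the receptor gene NR3C1 also lie higher in SCC-9. Not drawn are the glucocorticoid-induced genes KLF15 and CRISPLD2, called higher in Detroit 562, and SGK1, not called.

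Enzymes that handle aldehydes, oxidants and foreign compounds were also higher in Detroit 562. Of 28 target enzymes of NRF2, the transcription factor of the oxidant response, 22 were higher in Detroit 562 and 1 in SCC-9, with a median of 1.76. Of 44 UDP-glucuronosyltransferases, cytochromes P450 and glutathione S-transferases, 34 and 6 were, but the 9 UGT1A genes share their last exons and most of their reads and amount to 1 measurement. GPX2, a glutathione peroxidase, was at 6304, 5443 and 2570 in Detroit 562 and at 8.63, 13.3 and 12.3 in SCC-9 (log2 fold change 8.69, SE 0.588, adjusted p = 6.63e-10). AKR1C2, an aldo-keto reductase, was at 10200, 11550 and 4147 against 113, 160.1 and 129 (log2 fold change 6.01, SE 0.584, adjusted p = 6.68e-08), with the limit that AKR1C1, AKR1C2 and AKR1C3 are close copies. The member called higher in SCC-9 was GCLM, the modifier subunit of glutathione synthesis, at -0.42, and its size fell under 0.4 without Detroit 562 replicate 3 (-0.34) or SCC-9 replicate 3 (-0.39), whereas its catalytic partner GCLC was at 3.12. HMOX1 and SRXN1, also targets of NRF2, overlapped between the lines.

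Of 21 alcohol and aldehyde dehydrogenases 13 were higher in Detroit 562 and 3 in SCC-9, with a median of 1.06. ALDH3A1, which protects the cornea and the upper airway from aldehydes, was at 40240, 32700 and 9700 in Detroit 562 and at 6.71, 13.3 and 13.3 in SCC-9 (log2 fold change 11.26, SE 1.13, adjusted p = 9.5e-08). ALDH1A3, which makes retinoic acid, was steadier, at 42850, 43410 and 43010 against 4458, 4678 and 4919 (log2 fold change 3.20, SE 0.146, adjusted p = 4.44e-12). ADH1B was at 2393, 2029 and 648 against 0.959, 0.953 and 1.02, and ADH1C had nearly the same counts in every library because the 2 genes overlap in the annotation, so they cannot be told apart. ALDH3A1, ADH1B, GPX2 and AKR1C2 were all lowest in Detroit 562 replicate 3. ALDH2, the mitochondrial enzyme that clears acetaldehyde, lay the other way, at 315, 276 and 159.8 against 1458, 1721 and 1656 (log2 fold change -2.68, SE 0.369, adjusted p = 4.42e-06). Of the other enzymes CYP24A1, which inactivates vitamin D, was higher in Detroit 562 at 4.77, and CYP27B1, which activates it, was higher in SCC-9 at -1.22.

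SCC-9 expressed cytokines that Detroit 562 hardly did. Of 34 cytokines and chemokines, 19 were higher in SCC-9 and 10 in Detroit 562, with a median of -1.42. IL1B, a central signal of inflammation, was at 7.56, 9.80 and 6.48 in Detroit 562 and at 3533, 3212 and 3168 in SCC-9 (log2 fold change -8.68, SE 0.277, adjusted p = 7.66e-14), and IL1A lay the same way at -5.91. Their natural antagonist IL1RN was opposite, at 464, 427 and 473 against 81.5, 97.2 and 141 (log2 fold change 2.10, SE 0.32, adjusted p = 1.48e-05). CSF3, the granulocyte growth factor, had no count in any Detroit 562 library and 2849, 2146 and 895 normalized counts in SCC-9, at least 631-fold. IL24 was at 0, 1.09 and 1.08 against 1625, 1374 and 794, a ratio of summed counts of 1849 (95% interval 512 to 15280). CXCL11, which attracts T cells through CXCR3, was at 0.945, 1.09 and 1.08 against 2507, 2548 and 2408, a ratio of 2408 (95% interval 824 to 11680). CSF3 and IL24 were both lowest among SCC-9 libraries in replicate 3. CXCL8, a chemokine of neutrophils, was closer at -0.96, and its relative CXCL6 lay the other way, at 125, 123 and 102 in Detroit 562 with 0 in each SCC-9 library, at least 39.7-fold.

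Response genes of interferon split by gene. Of 43 tested, 21 were higher in SCC-9 and 9 in Detroit 562, with a median of -0.40. IFI27 was at 18.9, 30.5 and 19.4 in Detroit 562 and at 1280, 2057 and 2110 in SCC-9 (log2 fold change -6.31, SE 1.09, adjusted p = 5.55e-05), and ISG15 at 510.3, 463 and 374 against 1587, 1642 and 1719 (log2 fold change -1.88, SE 0.169, adjusted p = 2.64e-08). The helicase gene DDX58, the sensor RIG-I, had a log2 fold change of -2.36. OAS1 and IFI44L lay the other way, at 1.76 and 2.49, and IFIT1, IFIT2 and MX1 were not called. TLR3, a sensor of double-stranded RNA, was at 1597, 1475 and 1153 in Detroit 562 and at the floor in SCC-9 with 2.88, 0.953 and 3.07, a ratio of summed counts of 622 (95% interval 301 to 1547).

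Genes of antigen presentation by MHC class I and II were more often higher in Detroit 562. Of 27 tested 15 were higher in Detroit 562 and 5 in SCC-9, with a median of 0.51. B2M, the light chain of every class I molecule, was at 34620, 35510 and 32190 against 8285, 8163 and 9119 (log2 fold change 2.00, SE 0.0673, adjusted p = 1.4e-13). HLA-B and HLA-C had log2 fold changes of 2.93 and 2.10. These genes are polymorphic and near-identical in part, and HLA-B and HLA-C overlap in the annotation, so their separate values are uncertain. ERAP2, a peptidase that trims class I peptides, was at 9605, 9885 and 7790 in Detroit 562 and at 195, 205 and 212 in SCC-9 (log2 fold change 5.48, SE 0.167, adjusted p = 4.82e-14). TAP1, which pumps peptides to class I, was 1 of the 5 called higher in SCC-9, at -1.14. A difference of at least 4-fold was called for 2 of those 5, and for 8 of the 15 higher in Detroit 562.

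Of 14 S100 genes 5 were higher in SCC-9 and 2 in Detroit 562. The alarmins S100A8 and S100A9, which form calprotectin, had log2 fold changes of -3.23 and -1.95. S100A7, psoriasin, was at 4.72, 6.53 and 10.8 in Detroit 562 and at 1160, 1537 and 2008 in SCC-9 (log2 fold change -7.73, SE 0.368, adjusted p = 7.71e-12).

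Genes that glucocorticoids induce were higher in SCC-9, the line kept in hydrocortisone. Of 14 tested, 10 were higher in SCC-9 and 2 in Detroit 562, with a median of -2.46. FKBP5, a co-chaperone that feeds back on the receptor, was at 1532, 1557 and 1756 in Detroit 562 and at 11750, 13820 and 14800 in SCC-9 (log2 fold change -3.06, SE 0.0932, adjusted p = 4.75e-14). PER1, a clock gene, and KLF9 had log2 fold changes of -2.60 and -3.14. ZBTB16 was at 1.89, 2.18 and 0 against 62.3, 137 and 112. TSC22D3, which encodes GILZ, was called with a smaller difference, at 1768, 1481 and 1149 against 1968, 2147 and 2429 (log2 fold change -0.57, SE 0.242, adjusted p = 0.041), and SGK1 was not called (-0.28). TSC22D3 missed the threshold without Detroit 562 replicate 3 (-0.42, adjusted p = 0.155) and without SCC-9 replicate 3 (-0.49, adjusted p = 0.123). KLF15 and CRISPLD2 were higher in Detroit 562, at 3.86 and 1.97.

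The receptor itself differed less. NR3C1, the glucocorticoid receptor, was at 3420, 3322 and 3482 in Detroit 562 and at 4995, 4864 and 5068 in SCC-9 (log2 fold change -0.55, SE 0.0702, adjusted p = 2.03e-06). HSD11B2, which inactivates cortisol, was at 76.5, 92.6 and 98.2 against 123, 157 and 179 (log2 fold change -0.78, SE 0.184, adjusted p = 0.00106). FaDu had 1612 normalized counts of FKBP5, 609 of PER1, 8.10 of KLF9 and 3.85 of ZBTB16. It had 275 of TSC22D3, 653 of SGK1, 8.34 of KLF15 and 297 of CRISPLD2. The metallothionein cluster on chromosome 16, MT2A to MT1X, held 10 tested genes, each called higher in SCC-9 with a log2 fold change between -3.48 and -2.24. MT2A, which like MT1X is also on the glucocorticoid list, was at 5225, 5442 and 4477 against 61600, 55860 and 51090 (log2 fold change -3.48, SE 0.253, adjusted p = 1.68e-09). The single members are close copies and their separate values are uncertain.

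Growth factor receptors were more often higher in Detroit 562. Of 44 receptor tyrosine kinases 25 were higher in Detroit 562 and 9 in SCC-9, with a median of 0.73. EGFR, the main receptor of squamous carcinoma, was at 22720, 21960 and 22070 in Detroit 562 and at 21120, 21240 and 19940 in SCC-9 and was not called (log2 fold change 0.10, SE 0.101, adjusted p = 0.381). ERBB2 and ERBB3 were not called either, at -0.08 and -0.19. The receptors for fibroblast growth factors stood apart more. FGFR2 was at 4265, 3985 and 2995 against 115, 117 and 168 (log2 fold change 4.82, SE 0.223, adjusted p = 5.15e-12), FGFR3 had a log2 fold change of 3.90 and FGFR1 of 4.49. KIT, the receptor of stem cell factor, was at 1314, 1351 and 1036 against 18.2, 8.57 and 16.4 (log2 fold change 6.42, SE 0.349, adjusted p = 3.99e-11). AXL, a receptor known from mesenchymal carcinoma cells, was higher in SCC-9, at 3791, 3960 and 5337 against 14420, 11710 and 10880 (log2 fold change -1.50, SE 0.248, adjusted p = 3.46e-05).

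Each line was high in other ligands of the EGF receptor family. Of 11 tested 5 were higher in each line. Amphiregulin (AREG) was at 759, 937 and 1356 in Detroit 562 and at 15060, 13300 and 10010 in SCC-9 (log2 fold change -3.65, SE 0.216, adjusted p = 1.15e-10), and EPGN, TGFA and HBEGF lay the same way at -7.53, -1.87 and -2.38. The neuregulins NRG1 and NRG4, ligands of the other ERBB receptors, were higher in Detroit 562. NRG1 was at 4522, 4382 and 3646 against 496, 427 and 359 (log2 fold change 3.29, SE 0.217, adjusted p = 4.8e-10), and NRG4 had a log2 fold change of 7.90. Epiregulin (EREG) was higher in Detroit 562 too, at 2.82.

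Of 19 genes of the HGF and MET axis 8 were higher in Detroit 562 and 7 in SCC-9. HGF itself was at the floor in both lines. CD44, a co-receptor of MET, was at 123800, 132700 and 193200 in Detroit 562 and at 41880, 36580 and 36860 in SCC-9 (log2 fold change 1.96, SE 0.25, adjusted p = 1.83e-06). The signalling adaptor SHC1 and the ubiquitin ligase CBL, which takes down MET, were higher in SCC-9, at -1.14 and -1.36. SPINT1, an inhibitor of the proteases that activate HGF, was higher in Detroit 562 at 1.39. MET lies on chromosome 7 in a stretch of 6 tested genes, from TES to ST7, which were all called higher in Detroit 562, with log2 fold changes between 1.20 and 1.46. The stretch was bounded after the values were seen. Of the 10 genes before it 8 were called higher in Detroit 562 and 1 in SCC-9, with a median of 0.76, and of the 10 after it 7 and 1, with a median of 1.05 and a range from -2.29 to 6.64.

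Of 18 genes of the notch pathway 9 were higher in Detroit 562 and 6 in SCC-9. NOTCH1 and NOTCH2 were higher in SCC-9, at -1.07 and -0.81, and NOTCH3 in Detroit 562, at 1.43. HES2 was at 97.3, 44.6 and 33.5 in Detroit 562 and at 5950, 7120 and 7494 in SCC-9 (log2 fold change -6.84, SE 0.334, adjusted p = 1.03e-11), while HES1, the usual target of notch, overlapped (0.24).

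Homeobox genes differed by cluster. Of 38 HOX genes tested 21 were higher in Detroit 562 and 15 in SCC-9, with a median of 1.14. In the HOXA cluster each of the 11 genes tested was higher in Detroit 562. HOXA7 was at 992, 1108 and 1026 in Detroit 562 and at 33.6, 39.1 and 24.5 in SCC-9 (log2 fold change 5.00, SE 0.155, adjusted p = 5.8e-14), and HOXA13, the last of the cluster, at 170.1, 161 and 180.3 against 9.59, 12.4 and 5.11 (log2 fold change 4.21, SE 0.246, adjusted p = 9.95e-11). The HOXC cluster lay the other way and by less, from -1.28 for HOXC8 to -0.55 for HOXC5 among the 7 genes called. HOXC5 overlapped between the lines and was not called without Detroit 562 replicate 1 (-0.26), Detroit 562 replicate 2 (-0.56) or SCC-9 replicate 2 (-0.36), nor by DESeq2, with no filter on low counts or in the 6 untreated libraries alone, with a replicate block or without. In FaDu 10 of the 11 HOXA genes were within 4-fold of Detroit 562 and 1 within 4-fold of SCC-9.

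The HOXB and HOXD clusters were broken inside. HOXD10 to HOXD13 were higher in Detroit 562, HOXD13 at 343, 329 and 381 against 7.67, 12.4 and 9.20 (log2 fold change 5.15, SE 0.222, adjusted p = 2.28e-12). HOXD3 and HOXD4, at the other end, were nearly off in Detroit 562 and on in SCC-9. HOXD3 was at 1.89, 7.62 and 1.08 against 262, 325 and 288 (log2 fold change -6.35, SE 0.346, adjusted p = 4.16e-11). FaDu had 6.09 normalized counts of HOXD3 and 129 of HOXD13. HOXB4 was higher in Detroit 562 at 4.28, and HOXB9 in SCC-9 at -4.05. Many HOX genes overlap a neighbour on the same strand, among them HOXA3 with HOXA4, HOXB3 with HOXB4 and HOXD3 with HOXD4, and reads in the overlap were counted for both.

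**Figure D4:**
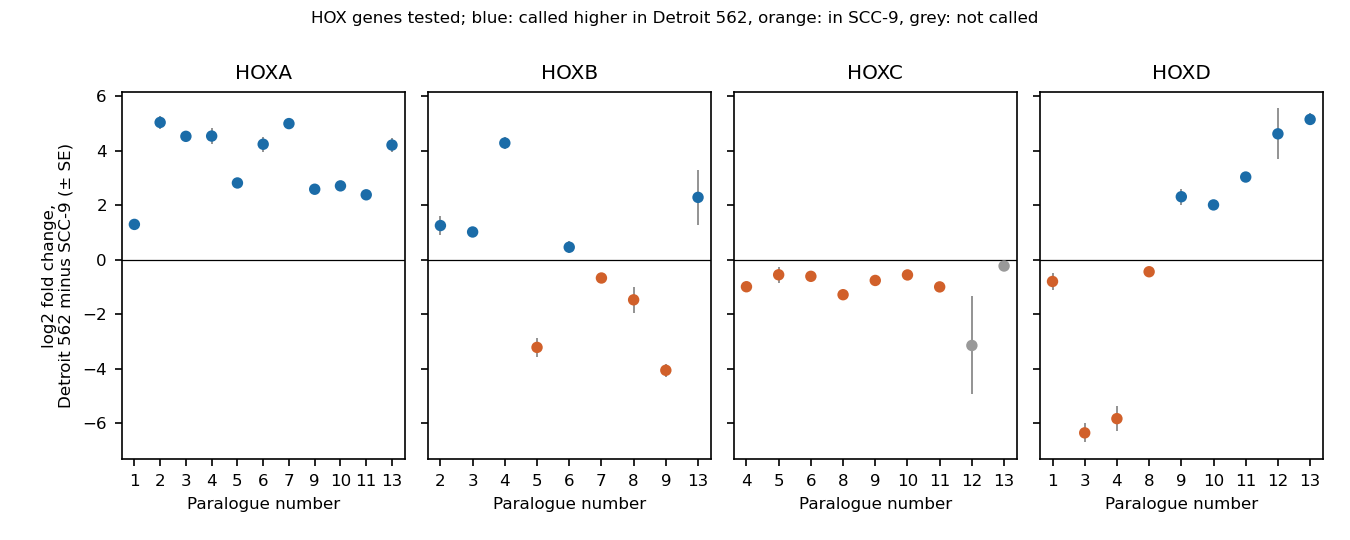
Log2 fold change (Detroit 562 minus SCC-9, ± SE, untreated libraries) of each tested HOX gene by its paralogue number, 1 panel a cluster; blue points were called higher in Detroit 562, orange in SCC-9 and grey were not called. HOXA genes lie above 0, HOXC genes below it, and HOXD genes run from -6.35 for HOXD3 to 5.15 for HOXD13.

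Of 52 other positional transcription factors 28 were higher in Detroit 562 and 13 in SCC-9, with a median of 0.94. PAX9, a factor of the pharyngeal pouches and of oral and oesophageal epithelium, was at 4578, 4170 and 4198 in Detroit 562 and at 250.3, 282 and 424 in SCC-9 (log2 fold change 3.76, SE 0.227, adjusted p = 1.52e-10). FOXA1, a pioneer factor of endoderm and glands, was at 6031, 5469 and 5182 against 233, 281 and 371 (log2 fold change 4.24, SE 0.208, adjusted p = 1.08e-11). MEIS2, a partner of HOX proteins, was at 1905, 2053 and 2021 against 209, 198 and 228 (log2 fold change 3.23, SE 0.105, adjusted p = 9.5e-14). MSX1, MSX2 and DLX5, genes of the facial mesenchyme and the teeth, were higher in Detroit 562, at 6.34, 5.93 and 6.28. TBX18 was the opposite, at 1.89, 4.36 and 5.40 in Detroit 562 and 1005, 989 and 1014 in SCC-9 (log2 fold change -8.00, SE 0.329, adjusted p = 1.33e-12).

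Genes of division were close. Of 24 mitosis genes 5 were higher in Detroit 562, 5 in SCC-9 and 14 were not called, with a median of -0.01. MKI67, a protein of cycling cells, was at 16470, 14610 and 15320 in Detroit 562 and at 16350, 19240 and 18990 in SCC-9 (log2 fold change -0.23, SE 0.115, adjusted p = 0.0741). The control of the cycle differed more. CDKN2A, which encodes the inhibitor p16 and also ARF, was at 727, 750.3 and 625 against 0, 2.86 and 8.18 (log2 fold change 7.56, SE 0.391, adjusted p = 2.12e-11).

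The next inhibitor gene on chromosome 9, CDKN2B, was at 349, 338 and 322 in Detroit 562 and at the floor in SCC-9 with 0, 0 and 1.02, a ratio of summed counts of 1034 (95% interval 185 to 40870). MTAP, which adjoins CDKN2A, was at 3149, 3220 and 3916 and 2971, 2787 and 2882 and was not called (0.25). HACD4, an enzyme of long fatty acids in the same region, was at 139.9, 129.6 and 76.7 in Detroit 562 and 0 in each SCC-9 library, at least 39.3-fold. The list for this region was mixed. Of its 9 tested genes 4 were called higher in Detroit 562, 1 in SCC-9 and 4 were not called, with a median of 0.25. CCND1, the cyclin that CDKN2A opposes, was at 37760, 43360 and 49620 against 9463, 8036 and 7617 (log2 fold change 2.38, SE 0.118, adjusted p = 1.32e-11), and its partners CDK4 and CDK6 were also higher in Detroit 562, at 1.21 and 1.47. MYC lay the other way, at 3422, 4057 and 4218 against 13790, 14570 and 14600 (log2 fold change -1.88, SE 0.0938, adjusted p = 1.39e-11), as did CDKN1A, the p21 gene, at -1.63. In the chromosome 11 region of CCND1, 7 of 10 tested genes were higher in Detroit 562 and 2 in SCC-9, with CTTN at 38330, 40000 and 44120 against 5579, 6302 and 5415 (log2 fold change 2.82, SE 0.116, adjusted p = 1.3e-12) and ANO1 opposite at -1.49.

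Glycolysis was balanced in number. Of 25 genes 8 were higher in Detroit 562, 7 in SCC-9 and 10 were not called, with a median of -0.19. The lactate branch was split by isoform. LDHA was at 30500, 32240 and 38610 in Detroit 562 and at 68840, 60750 and 63740 in SCC-9 (log2 fold change -0.93, SE 0.0907, adjusted p = 6.81e-08), and LDHB at 31050, 32800 and 31730 against 15210, 14550 and 14180 (log2 fold change 1.12, SE 0.0604, adjusted p = 3.55e-11). The lactate carriers SLC16A1 and SLC16A3 were higher in SCC-9, at -1.35 and -1.55. GAPDH, often used as a reference gene, was at 174800, 177100 and 179300 against 112700, 102700 and 104300 (log2 fold change 0.73, SE 0.0598, adjusted p = 7.4e-09).

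Cancer-testis genes, which are silent in most adult tissue and open in some tumours, differed mainly towards SCC-9 among those with counts. Of 45 listed, 24 had too few counts to be tested. Of the 21 tested, 12 were at the floor in one line only, and 17 were higher in SCC-9 and 1 in Detroit 562, with a median of -6.44, or -3.90 with genes at the floor in one line set to their bound. MAGEA12 had no count in any Detroit 562 library and 1777, 1720 and 1951 normalized counts in SCC-9, at least 583-fold. CSAG1 was at 0, 0 and 1.08 against 942, 943 and 1053, a ratio of summed counts of 2838 (95% interval 509 to 112100). MAGEA3 was at 4.72, 3.27 and 3.24 against 3703, 3606 and 4090, but MAGEA3 and MAGEA6, like MAGEA2 and MAGEA2B, are near-identical copies and their split is uncertain. From MAGEA3 to MAGEA6 on chromosome X all 8 tested genes were called at least 4-fold higher in SCC-9. MAGEA4 was not called, with 0 in Detroit 562 and 0.959, 4.76 and 17.4 in SCC-9, and PRAME had no count in either line. FaDu differed from both, with 8838 normalized counts of MAGEA4, 1455 of PRAME and 0 of MAGEA12.

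In all, 226 genes called higher in Detroit 562 were at the floor in SCC-9, and 398 called higher in SCC-9 were at the floor in Detroit 562. At least 100 normalized counts in the higher line were reached by 69 and 106 of these. Beside PIGR, MMP13, TLR3, ADH1B and ADH1C, the 8 with the highest level in Detroit 562 included SPG20, GPC4 and LYPD2. SPG20, which encodes spartin, was at 1690, 1705 and 1736 in Detroit 562 and 0, 2.86 and 2.04 in SCC-9, a ratio of summed counts of 1050 (95% interval 449.6 to 3235). GPC4, a glypican, was at 1729, 1771 and 1486 against 0, 0.953 and 0, a ratio of 5112 (95% interval 917 to 202000). LYPD2, of the LY6 family, was at 1137, 1456 and 1013 against 0, 0 and 1.02.

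Beside SPARC, CXCL11 and CSF3, the 8 with the highest level in SCC-9 included SFRP1, TMX3, NPR2, ALOX15B and DMBT1. SFRP1, a secreted inhibitor of WNT ligands, was at 0, 1.09 and 0 in Detroit 562 and at 5407, 4894 and 3904 in SCC-9, a ratio of 13790 (95% interval 2476 to 544900). TMX3, a disulfide isomerase of the endoplasmic reticulum, was at 0.945, 0 and 1.08 against 3407, 3301 and 3528, a ratio of 4948 (95% interval 1369 to 40860). DMBT1, a scavenger protein of mucosa and saliva, was at 0, 0 and 1.08 against 2216, 1981 and 1310 and so ran against the direction of most mucosal genes. ALOX15B, a lipoxygenase of skin and cornea, was at 1.89, 1.09 and 2.16 against 1746, 2374 and 2623, and NPR2, a receptor of natriuretic peptides, at 0.945, 0 and 2.16 against 2892, 2950 and 2080. On the scale of log2 of the level plus 1, FaDu lay nearer to Detroit 562 than to SCC-9 for 6 of the 8 genes high in Detroit 562 and for 7 of the 8 high in SCC-9. ADH1B and ADH1C, which cannot be told apart, are both among the 6. The share over all tested genes was not computed. Genes chosen for these extremes thus give no measure of how alike the lines are.

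Among genes with at least 100 normalized counts in each of the 6 libraries, the largest differences towards Detroit 562 were those of COL5A2, KRT19, PLEKHG4B, AKR1C2, IGFBP3 and ERAP2. IGFBP3, which binds insulin-like growth factors, was at 34040, 36110 and 34960 against 429.7, 513 and 721 (log2 fold change 5.98, SE 0.326, adjusted p = 4.04e-11). PLEKHG4B, a nucleotide exchange factor, was at 8973, 7728 and 5469 against 102, 105 and 109 (log2 fold change 6.13, SE 0.256, adjusted p = 1.57e-12). Towards SCC-9 they included those of KRT81, FN1, TNS4, TLN1 and KRT86. TNS4, a tensin of focal adhesions, was at 377, 383 and 487 against 34300, 36040 and 30450 (log2 fold change -6.34, SE 0.143, adjusted p = 1.58e-15). TLN1, talin, which links integrins to actin, was at 3680, 3216 and 3493 against 185700, 194600 and 173400 (log2 fold change -5.74, SE 0.0912, adjusted p = 3.04e-17).

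Several differences came in runs along a chromosome. These runs were found from the values and are described without a test, and genes named in them outside the lists were chosen after their values were seen. Their bounds were set from the values too, so the counts inside them follow in part from that choice. On chromosome 9 from DCTN3 to MELK, 34613545 to 36677683 on GRCh38, all 41 tested genes were called higher in SCC-9, 40 of them at least 4-fold. The median of their log2 fold changes was -3.95, and the gene nearest to 0 was UNC13B at -1.05. The next 10 genes towards the short arm's end were also called higher in SCC-9, 7 of them at least 4-fold, and of the next 10 on the other side 1 was called at all. The run held genes of unrelated work. VCP, an ATPase that unfolds proteins, was at 13400, 13420 and 12890 in Detroit 562 and at 150000, 147400 and 137800 in SCC-9 (log2 fold change -3.45, SE 0.0695, adjusted p = 4.22e-16). CLTA, a clathrin light chain, was at 4555, 4609 and 4631 against 58920, 55450 and 57460 (log2 fold change -3.64, SE 0.0546, adjusted p = 1.75e-17). TLN1 and NPR2, both named above, and TPM2 of the mesenchymal list lie in it. Over the 41 genes the median level was 483.5 in Detroit 562, 5715 in SCC-9 and 307 in FaDu, and FaDu was within 4-fold of Detroit 562 for 38 of them.

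On chromosome 11 from TRPC6 to CARD16, 101451564 to 105101431, 19 of 20 tested genes were called higher in Detroit 562, 18 of them at least 4-fold, with a median of 3.45. The exception was BIRC3, an inhibitor of cell death, at -1.28, beside its relative BIRC2 at 2.19. YAP1, the effector of the Hippo pathway, was at 71220, 64240 and 68740 in Detroit 562 and at 7005, 6944 and 7615 in SCC-9 (log2 fold change 3.24, SE 0.0734, adjusted p = 1.58e-15), and FaDu had 8593. MMP13, MMP10, MMP1, MMP7, MMP3 and MMP12 lie in this run, 6 of the 16 proteases and inhibitors called higher in Detroit 562 above. The caspase gene CASP4 lies in it too, at 8140, 8483 and 8504 against 1472, 1543 and 1491 (log2 fold change 2.48, SE 0.0903, adjusted p = 3.35e-13). The 10 genes towards the centromere had a median of 1.35 and the 10 on the other side of -0.56.

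On chromosome 19 from ZFP82 to ZNF573, 36383120 to 37817300, all 28 tested genes were called higher in SCC-9, 24 of them at least 4-fold. Most are zinc finger genes, of a class that silences repeated DNA. In Detroit 562, 13 of them were at the floor, and the median level was 2.32 there, 276.3 in SCC-9 and 122.8 in FaDu. ZNF829 had no count in Detroit 562 and 289.6, 272 and 251 normalized counts in SCC-9, at least 87.1-fold, and ZNF585A was at 0, 0 and 1.08 against 374, 361 and 302. Of the 10 genes before the run 9 were called higher in SCC-9, 0 of them at least 4-fold. Of the 10 after it 5 were, 1 of them at least 4-fold. Over the whole of chromosome 19, 50.7% of 1149 tested genes were called higher in SCC-9 and 19.8% in Detroit 562.

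**Figure D5:**
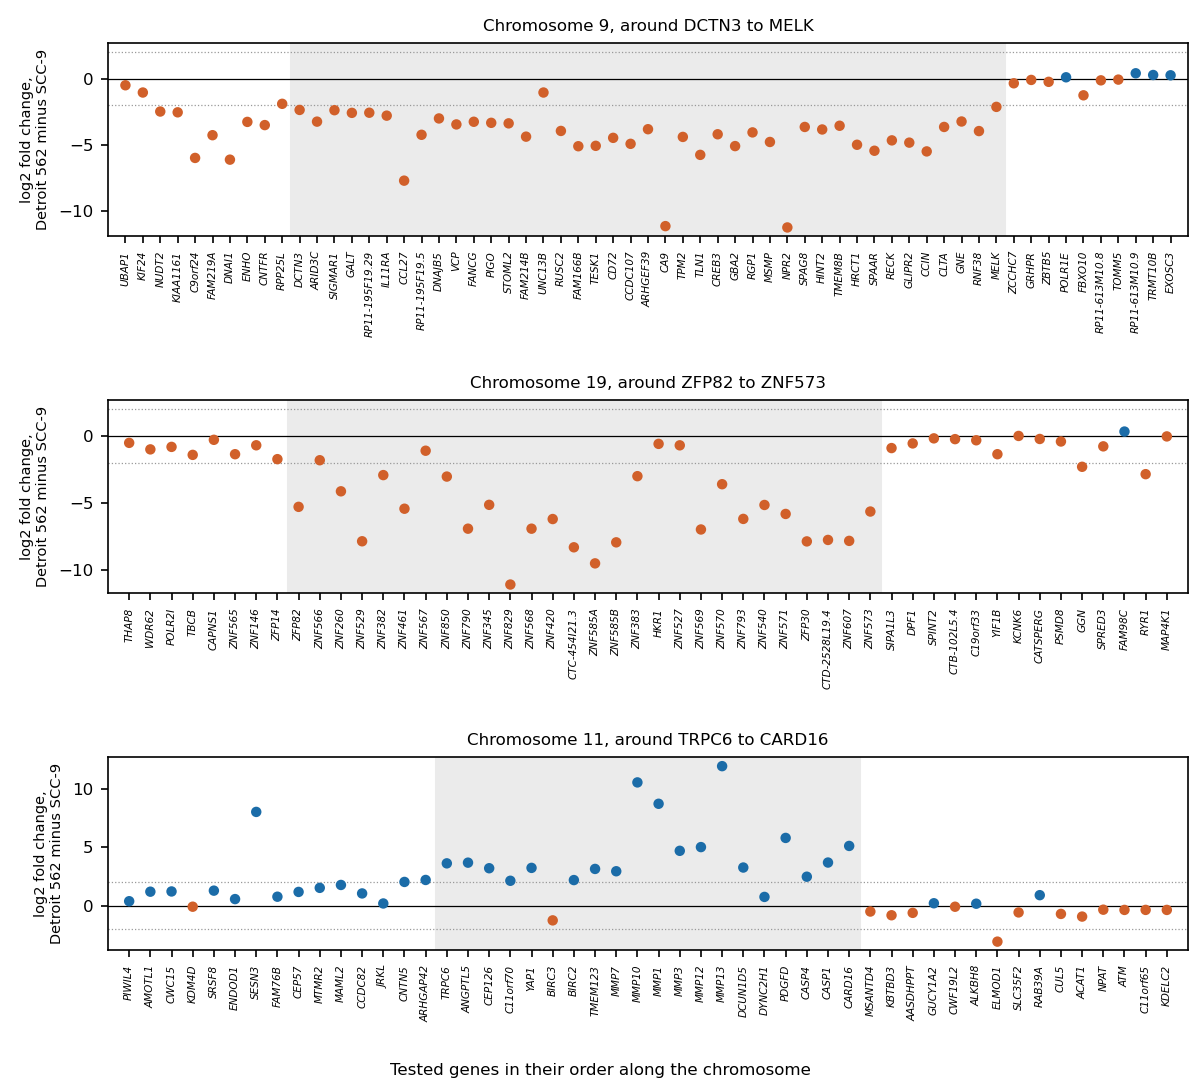
Log2 fold change (Detroit 562 minus SCC-9, untreated libraries) of tested genes in their order along chromosomes 9, 19 and 11, blue above 0 and orange below it, with the described run shaded and dotted lines at 4-fold. Inside the shading 41 of 41 genes on chromosome 9 and 28 of 28 on chromosome 19 were called higher in SCC-9, and 19 of 20 on chromosome 11 in Detroit 562.

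The promoters of the genes on in one line and at the floor in the other were set beside those of all genes by their CpG content. CpG-rich promoters are usual for genes that most tissues express, and CpG-poor promoters for genes of particular tissues. The shares are a description with no test. The 250 bases before the first listed start were taken from RefSeq on GRCh38.p14 for the 12071 tested genes that matched by symbol. A promoter was called CpG-rich with a GC content of at least 50% and a ratio of observed to expected CpG of at least 0.6. Of all tested genes 72.0% had a CpG-rich promoter, against 43.4% of 166 matched genes at the floor in SCC-9 and 39.5% of 286 at the floor in Detroit 562. Among genes with at least 100 normalized counts in all 6 libraries the share was 80.4%. Among genes at the floor in Detroit 562, the share was 69.6% of 23 zinc finger genes of chromosome 19 and 36.9% of the other 263. With a CpG-rich promoter at any listed start counted, the shares were 78.4% of all genes, 51.2% of genes at the floor in SCC-9 and 42.3% of those at the floor in Detroit 562.

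Promoters of both kinds are shown for 5 genes, each given as the 150 bases before the start, 5′ to 3′ on the strand of the gene, with every CpG in capitals. ZNF585A (chr19:37172696-37172845, minus strand) and ZNF829 (chr19:36916292-36916441, minus strand) were at the floor in Detroit 562 and have 9 and 16 CpG in the stretch shown. YAP1 (chr11:102110297-102110446, plus strand) was expressed in both lines and has 21. MMP7 (chr11:102530748-102530897, minus strand) and PIGR (chr1:206946467-206946616, minus strand), higher in Detroit 562, have 2 and 1. The first 3 are CpG-rich by the rule above and the last 2 are not. ZNF585A and ZNF829 are thus not of the CpG-poor kind that most genes at the floor had, and MMP7 had counts in both lines. No count of letters says which factor binds.
ZNF585A: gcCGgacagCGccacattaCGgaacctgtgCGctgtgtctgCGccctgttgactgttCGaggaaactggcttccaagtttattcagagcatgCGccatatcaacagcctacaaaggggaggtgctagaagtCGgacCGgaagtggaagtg
ZNF829: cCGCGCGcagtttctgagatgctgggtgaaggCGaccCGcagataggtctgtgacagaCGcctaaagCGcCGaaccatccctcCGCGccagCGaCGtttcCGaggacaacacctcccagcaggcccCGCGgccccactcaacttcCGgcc
YAP1: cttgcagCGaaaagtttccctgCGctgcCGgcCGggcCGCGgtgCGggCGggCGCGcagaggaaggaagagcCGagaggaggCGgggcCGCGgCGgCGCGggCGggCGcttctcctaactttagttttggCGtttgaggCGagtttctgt
MMP7: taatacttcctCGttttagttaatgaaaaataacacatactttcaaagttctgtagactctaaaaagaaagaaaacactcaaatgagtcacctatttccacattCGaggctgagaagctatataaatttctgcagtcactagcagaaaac
PIGR: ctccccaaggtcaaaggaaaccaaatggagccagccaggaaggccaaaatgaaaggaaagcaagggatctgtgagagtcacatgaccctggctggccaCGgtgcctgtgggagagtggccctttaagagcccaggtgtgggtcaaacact

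The differences between the lines were found again in the HGF-treated libraries, although 1 model set the spread of both comparisons. There 10151 genes were called (65.6%), 4906 (31.7%) higher in Detroit 562 and 5245 (33.9%) in SCC-9. Called in both comparisons with the same direction were 8953 genes, 88.49% of the untreated and 88.2% of the HGF calls, and 8 were called in opposite directions. The difference between the lines itself changed with HGF, by the interaction of line and treatment at an adjusted p below 0.1, for 143 genes (0.924%). The other genes are not thereby shown to be unchanged, least of all those at the floor in 1 line. ADH1B went from a log2 fold change of 10.58 untreated to 6.66 with HGF (interaction adjusted p = 0.507). MMP13 went from 11.95 to 9.76 (interaction adjusted p = 0.792). KRT4 had a log2 fold change of 10.34 with HGF and KRT14 of -11.21, SOX2 of 8.63, VIM of -9.97, PIGR of 9.07 and IL1B of -7.36. Of the 226 genes at the floor in untreated SCC-9, 157 were at the floor in every HGF-treated library of that line, and of the 398 in Detroit 562, 326. With HGF the run on chromosome 9 had a median of -4.20, that on chromosome 19 of -5.94 and that on chromosome 11 of 3.53.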

How the data were processed

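Strand-specific mRNA libraries (TruSeq) of untreated and HGF-treated Detroit 562, FaDu and SCC-9 cells were sequenced, with 3 libraries per group and 18 in all. The authors demultiplexed reads with bcl2fastq 2.20.0.422, trimmed them with Cutadapt 1.16, aligned them with STAR 2.5.2b to GRCh38.p12 and counted reads per gene with bedtools, and the values deposited are these raw counts, with no normalization. Reads were counted over the gene extent, so genes that overlap on the same strand share reads, which touches 2200 tested genes. Total counts of the 6 untreated libraries compared lay between 37431702 and 42879349.

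Here genes were filtered with filterByExpr, counts were scaled by TMM (factors 0.966 to 1.051), and 1 quasi-likelihood model with 6 groups was fitted to all 18 libraries in edgeR 4.0.16 with limma 3.58.1 (R 4.3.3). It leaves 12 residual degrees of freedom. Contrasts compared Detroit 562 with SCC-9 among untreated libraries, among HGF-treated libraries, and the difference of both. Adjusted p-values are Benjamini-Hochberg values of these two-sided tests over all 15475 genes, and the SE is the absolute log2 fold change divided by the square root of F. Genes at the floor had at most 3 counts in each of the 3 libraries of a line. For them the ratio of summed counts, scaled by library size, is given with its exact 95% interval, or a lower bound against 3 counts where every library had 0. Levels of single genes were chosen by 3 rules: the 8 genes per direction with the highest level among called genes at the floor in the other line, the 6 per direction with the largest difference among genes with at least 100 normalized counts in all 6 libraries, and members of the gene lists. Runs of genes were sought in windows of 20 consecutive tested genes. The members, lists and runs were chosen with earlier results of these data known. Some members of the lists are not reported here.

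Promoters were read from RefSeq on GRCh38.p14. The scripts were tested on simulated counts. Alternatives were other normalizations and filters, DESeq2 1.42.0, the 6 libraries alone, a replicate block, other thresholds, overlapping genes left out and each library left out in turn. Python 3.11.15 with pandas 2.3.3 and matplotlib 3.10.9 drew the figures.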

Additional observations from a re-analysis of the deposited data

Results flagged for a closer look

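For 3 of the genes named above the difference between the lines changed with HGF, by the interaction of line and treatment at an adjusted p below 0.1 in edgeR's quasi-likelihood test. The values are the log2 response to HGF in Detroit 562 minus that in SCC-9. For HOXB9 it was 1.39 (adjusted p = 0.0949), for FKBP5 0.54 (adjusted p = 0.0799) and for KLF9 -0.88 (adjusted p = 0.0991). No cause was tested.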

How the results depend on the processing

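The number of genes called between the untreated lines depended most on the threshold. When the adjusted p had to be below 0.05 and the difference at least 1 on the log2 scale, 5484 genes were called in place of 10118, 2662 higher in Detroit 562 and 2822 in SCC-9, and among HGF-treated libraries 5479, 2534 higher in Detroit 562 and 2945 in SCC-9. The other alternatives kept each count within 1.5 times. Leaving out 1 library at a time, the untreated count was 10026 to 10172 and the HGF count 10025 to 10162. DESeq2 called 10330 genes with its fold change prior and 10363 without it, the 6 untreated libraries alone gave 9820, and 8697 were left without genes that overlap another. Same-numbered untreated libraries of the lines deviated from their group means with correlations of -0.107, 0.0592 and -0.0512. These cover all tested genes and include counting noise, so they cannot say whether such libraries came from the same repeat. A replicate block gave 10184 calls over 18 libraries and 9768 over the 6 compared. Of 236 genes named, 230 kept their call under every alternative run for them and no called gene changed direction. The others were TP63, IVL, GCLM, TSC22D3, HOXC5 and WT1, which is near 0 in both lines. The cause was not tested. Genes near the floor of 3 counts carry wide intervals, and ratios against them are orders of size.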
